A study of Mus musculus with 6 samples.

Results

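Divergent promoter long noncoding RNAs (lncRNAs) start next to the start of another gene and run away from it on the opposite strand. The members described here are transcripts of NONCODE, a database of noncoding RNA, that the deposited table describes as lncRNA and places on an autosome. Each spans no Ensembl transcript of the table on either strand and has its 5′ end within 2000 bases of the 5′ end of an opposite-strand Ensembl transcript, whose gene is called its partner. The rule used positions alone and no measured value, and it found 2882 transcripts among the 149728 of the table, or 4.51% of the 63944 autosomal NONCODE lncRNAs. These 2882 transcripts carry 2325 NONCODE gene identifiers and have 2224 partner genes.

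Lungs were taken from mice of the inbred strain BALB/c, labelled as 9 weeks old. Saline, 50 µl of it, was instilled into the trachea weekly for 8 weeks in one group, and PM2.5, airborne particles of up to 2.5 µm, in the same volume at 5 mg per kg of body weight in the other. Each group has 3 libraries, numbered 2, 3 and 4, and the labels do not say whether they came from separate mice, so p-values measure the spread between these libraries. Apart from the instillate, the labels give both groups the same strain, tissue and age. Values are FPKM (fragments scaled per transcript length and mapped fragments), a unit inferred from the values since none is stated, and the library kit did not mark the strand.

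Many mammalian promoters fire in both directions. RNA polymerase II starts on the coding strand and, from a separate initiation site upstream, on the opposite strand. The upstream RNA usually ends early at polyadenylation sites and is degraded by the nuclear exosome, whereas U1 snRNP binding protects the coding transcript, so stable divergent lncRNAs tend to be rare and of low level. Promoters of this kind are typically rich in CG dinucleotides and poor in TATA boxes.

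The partners were mostly protein-coding genes, which 2721 of the 2882 members faced, followed by 46 facing pseudogenes, 26 facing other lncRNA genes and 12 facing small nuclear RNA genes, while 64 had a partner symbol that matched no RefSeq entry. In 2870 pairs the lncRNA and the gene stood head to head and in 12 they did not, and 25 members had more than 1 partner symbol in reach. The 5′ ends lay 238 bases apart at the median, with quartiles of 111 and 712 bases and a range of 1 to 1997. The rule's limit of 2000 bases held 46 members between 1901 and 2000 bases, with a median level of 0.0483 FPKM, and 35 NONCODE lncRNAs lay just outside, between 2001 and 2100 bases, with a median of 0.0780 FPKM. The rule compares spans with the Ensembl rows of the table alone: 1562 members overlapped a RefSeq gene span, among them 544 that overlapped the span of their own partner, and 1320 overlapped none. A further limit of an unstranded library is that fragments of both strands are counted together, and 317 members, 35 of them among those tested below, overlapped a NONCODE transcript of the opposite strand. Among the members named below, this holds for those beside Lsm8, Ubald1, Chd3, Trim11, Lima1 and Cep170b.

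Promoter windows of 300 bases, from 250 before to 50 after the RefSeq start of the partner in GRCm38.p6, were found for 2202 members, and in 1863 of them the RefSeq start lay within 100 bases of the Ensembl 5′ end used by the rule. The 1423 distinct windows among these had a median GC content of 64.3%, against 56.3% over 21263 windows of protein-coding genes. Their ratio of observed to expected CG dinucleotides was 0.839 at the median against 0.567, and 81.8% of them had a ratio of at least 0.6 with a GC content of at least 50%, against 45.2%. The TATA box letters TATAAA, sought on both strands like every motif here, occurred in 5.48% of partner windows and in 12.6% of protein-coding windows. The GC box GGGCGG occurred in 73.9% against 46.2%, the E-box CACGTG in 10.6% against 7.84%, CCAAT in 39.4% against 38.2% and GCATGC, the centre of the NRF1 motif, in 9.35% against 8.19%. The partner windows are also part of the protein-coding set, so these shares are descriptions.

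The RefSeq windows of 7 partner genes are printed 5′ to 3′ on the strand of the gene, because they carry both starts of pairs that the results turn on. Ube2q1, Map4k3 and Ccdc124 had messenger RNAs that rose. Tbc1d22a, Scaf8 and Hist1h2bm had lncRNAs of low p among the members that averaged 1 FPKM or more without overlap between groups. Dusp1 had a lower messenger RNA beside a lncRNA of overlapping level. Capitals mark the stretch between the 5′ end of the lncRNA and that of the partner, as far as the window holds it. For Hist1h2bm the window holds the RefSeq start but not the Ensembl 5′ end used by the rule, which lies 54 bases past that start. Its capitals therefore run to the end of the window.
Ube2q1: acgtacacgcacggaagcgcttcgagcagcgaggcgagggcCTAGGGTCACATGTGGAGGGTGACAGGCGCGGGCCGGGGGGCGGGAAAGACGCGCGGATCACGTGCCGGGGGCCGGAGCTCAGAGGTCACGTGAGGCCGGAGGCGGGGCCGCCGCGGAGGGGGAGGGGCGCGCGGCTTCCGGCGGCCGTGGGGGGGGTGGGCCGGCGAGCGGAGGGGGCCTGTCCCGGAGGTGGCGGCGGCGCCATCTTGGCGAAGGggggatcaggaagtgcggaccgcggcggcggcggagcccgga
Map4k3: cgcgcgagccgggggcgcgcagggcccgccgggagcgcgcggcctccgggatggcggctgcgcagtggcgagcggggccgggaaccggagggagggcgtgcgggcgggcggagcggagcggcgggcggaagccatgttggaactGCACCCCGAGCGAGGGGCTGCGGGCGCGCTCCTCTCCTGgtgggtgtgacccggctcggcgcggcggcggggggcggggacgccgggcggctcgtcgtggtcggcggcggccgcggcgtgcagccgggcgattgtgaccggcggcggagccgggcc
Ccdc124: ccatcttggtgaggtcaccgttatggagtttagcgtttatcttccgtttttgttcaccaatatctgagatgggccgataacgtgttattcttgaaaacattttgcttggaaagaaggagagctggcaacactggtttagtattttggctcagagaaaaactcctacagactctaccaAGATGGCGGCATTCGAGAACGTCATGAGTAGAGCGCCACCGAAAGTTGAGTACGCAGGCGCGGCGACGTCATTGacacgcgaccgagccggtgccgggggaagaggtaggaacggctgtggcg
Tbc1d22a: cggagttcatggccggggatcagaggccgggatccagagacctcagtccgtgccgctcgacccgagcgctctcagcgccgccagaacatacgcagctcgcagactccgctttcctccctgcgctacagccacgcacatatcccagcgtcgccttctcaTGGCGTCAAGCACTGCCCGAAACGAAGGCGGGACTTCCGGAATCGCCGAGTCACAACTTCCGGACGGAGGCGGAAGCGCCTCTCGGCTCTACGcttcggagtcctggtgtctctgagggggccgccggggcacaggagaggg
Scaf8: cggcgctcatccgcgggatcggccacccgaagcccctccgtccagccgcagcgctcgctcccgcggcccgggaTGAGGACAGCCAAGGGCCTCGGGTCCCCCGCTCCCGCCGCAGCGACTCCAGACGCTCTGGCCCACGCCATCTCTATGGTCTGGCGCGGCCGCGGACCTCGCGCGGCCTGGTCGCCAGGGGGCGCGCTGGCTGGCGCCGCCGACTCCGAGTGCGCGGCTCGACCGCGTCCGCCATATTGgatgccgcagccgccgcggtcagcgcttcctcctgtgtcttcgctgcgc
Hist1h2bm: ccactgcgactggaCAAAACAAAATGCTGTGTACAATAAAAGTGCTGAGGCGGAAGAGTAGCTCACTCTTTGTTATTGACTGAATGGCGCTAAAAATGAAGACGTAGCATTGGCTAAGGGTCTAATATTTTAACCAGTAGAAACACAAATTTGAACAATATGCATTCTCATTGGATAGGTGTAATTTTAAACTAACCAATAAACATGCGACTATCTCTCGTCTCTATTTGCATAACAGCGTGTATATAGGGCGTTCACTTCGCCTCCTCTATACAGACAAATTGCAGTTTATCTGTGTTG
Dusp1: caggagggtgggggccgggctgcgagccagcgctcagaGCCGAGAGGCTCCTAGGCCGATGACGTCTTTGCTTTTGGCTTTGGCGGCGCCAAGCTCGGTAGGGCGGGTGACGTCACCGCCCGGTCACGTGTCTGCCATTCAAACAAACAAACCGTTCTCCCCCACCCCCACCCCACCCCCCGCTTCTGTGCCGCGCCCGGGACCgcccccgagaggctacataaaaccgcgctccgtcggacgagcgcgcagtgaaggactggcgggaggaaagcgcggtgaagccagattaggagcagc
The windows are chr3:89773359-89773658 on the plus strand for Ube2q1, chr17:80727976-80728275 on the minus strand for Map4k3 and chr8:70873441-70873740 on the minus strand for Ccdc124. Those of Tbc1d22a, Scaf8 and Hist1h2bm are on the plus strand at chr15:86214209-86214508, chr17:3114722-3115021 and chr13:21721794-21722093, and that of Dusp1 is on the minus strand at chr17:26508423-26508722. The capitals of Ube2q1 end at NONMMUT113605.1 and run for 217 bases, with a GGGCGG 171 bases and CACGTG 150 and 122 bases upstream of the RefSeq start. Those of Dusp1 run for 166 bases to NONMMUT100848.1 and hold GGGCGG once on each strand, 150 and 135 bases upstream, and CACGTG 126 bases upstream. In Map4k3 the 39 capitals end at NONMMUT030760.2 and hold none of the 5 motifs, although GGGCGG occurs 5 times elsewhere in the window. The 286 capitals of Hist1h2bm, whose window has a GC content of 38.7%, hold CCAAT 3 times and no GGGCGG.

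The divergent lncRNAs were present at low levels. The median of their means over the 6 libraries was 0.0792 FPKM and the highest mean was 7.03 FPKM. At the depth estimated from the spacing of low values, 18.8 to 22.2 M fragments per library, 3 fragments on a transcript of the median span of 1617 bases correspond to 0.0838 to 0.0987 FPKM, so about the middle member was carried by a few fragments. Values above 0 in all 6 libraries were listed for 1059 members, and 570 had a value above 0 in 1 library. Partner genes lay 72.7 times higher at the median, and 109 members lay above their partner. Across the 2882 pairs, which share libraries and in part share partners, Spearman's rho was 0.198 between the level of the lncRNA and that of the gene, and -0.0276 between the level of the lncRNA and the distance between the starts. The limit for testing, 0.5 FPKM averaged over the 6 libraries, was reached by 350 members with 320 partner genes, and 2532 members were not tested.

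The 10 members of highest level, 1 per partner, lay beside genes of varied function. NONMMUT150279.1, which starts 1816 bases from Lsm8, a subunit of the ring that binds U6 small nuclear RNA, had 5.65, 6.99 and 8.24 FPKM with saline and 9.27, 7.77 and 4.29 FPKM with PM2.5. The groups overlapped, with the highest and the lowest value both in PM2.5 libraries. NONMMUT023024.2, which RefSeq annotates as Snhg18, a host gene of small nucleolar RNA beside the semaphorin gene Sema5a, had 4.62, 3.44 and 2.81 FPKM against 3.30, 2.67 and 3.07 FPKM, again with overlap. NONMMUT024372.2 beside Ndufa6, a subunit of respiratory complex I, had 3.37, 2.91 and 3.22 FPKM against 3.24, 3.14 and 3.41 FPKM, which is close to level. NONMMUT128822.1 beside Pik3r2, a regulatory subunit of phosphoinositide 3-kinase, was closely alike with saline and spread with PM2.5, with 4.39, 4.56 and 4.45 FPKM against 3.79, 5.75 and 3.05 FPKM. NONMMUT150138.1 beside Ghrl, the gene of the stomach hormone ghrelin, was one of the members above its partner, with 2.86, 2.47 and 4.17 FPKM against 3.45, 3.05 and 2.83 FPKM, while Ghrl stayed between 0.145 and 0.447 FPKM in the 6 libraries. NONMMUT144863.1 beside Trim39, a ubiquitin ligase, was lower with PM2.5 without overlap, at 3.72, 3.55 and 4.34 FPKM against 3.32, 2.62 and 3.30 FPKM, and its log2 fold change of -0.29 (SE 0.15) had an adjusted p of 0.579 with limma. Trim39 itself was higher without overlap, at 5.39, 6.28 and 5.16 FPKM against 8.31, 6.76 and 6.87 FPKM. Pik3r2 was lower without overlap, at 14.3, 14.9 and 13.9 FPKM against 10.5, 10.8 and 11.7 FPKM. Their adjusted p values with limma were 0.380 and 0.218. Lsm8, Sema5a, Ndufa6 and Ghrl overlapped between groups. The members that face Tbc1d22a, Scaf8 and Btbd9 are described below.

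Summed over all 2882 members, whether tested or not, the level was lower with PM2.5. The sums were 716.9, 744.6 and 720.3 FPKM in saline replicates 2, 3 and 4 and 657.1, 570.3 and 545.3 FPKM in the PM2.5 replicates. Every PM2.5 library lay below every saline library, and the means were 727 ± 15.1 and 591 ± 58.7 FPKM (SD, n = 3 each), or 18.75% lower with PM2.5. As a share of all FPKM of a library the members were 18.1% lower, without PM2.5 replicate 4 their sum was 15.6% lower, without the 10 members of highest level 19.2% lower, and for the 1320 members outside RefSeq spans 22.2% lower. Members listed at 0 numbered 964, 869 and 932 with saline and 972, 1096 and 1212 with PM2.5, and 41 members were above 0 in every saline library and listed at 0 in every PM2.5 library, against 7 the other way round. That is 1.42% and 0.243% of the members, beside 0.506% and 0.221% of all transcripts of the table, 0.837% and 0.352% of the intergenic and 0.981% and 0.335% of the antisense lncRNAs, none of it tested. In such bulk tissue, fewer cells of a type and less RNA per cell cannot be told apart.

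**Figure D1:**
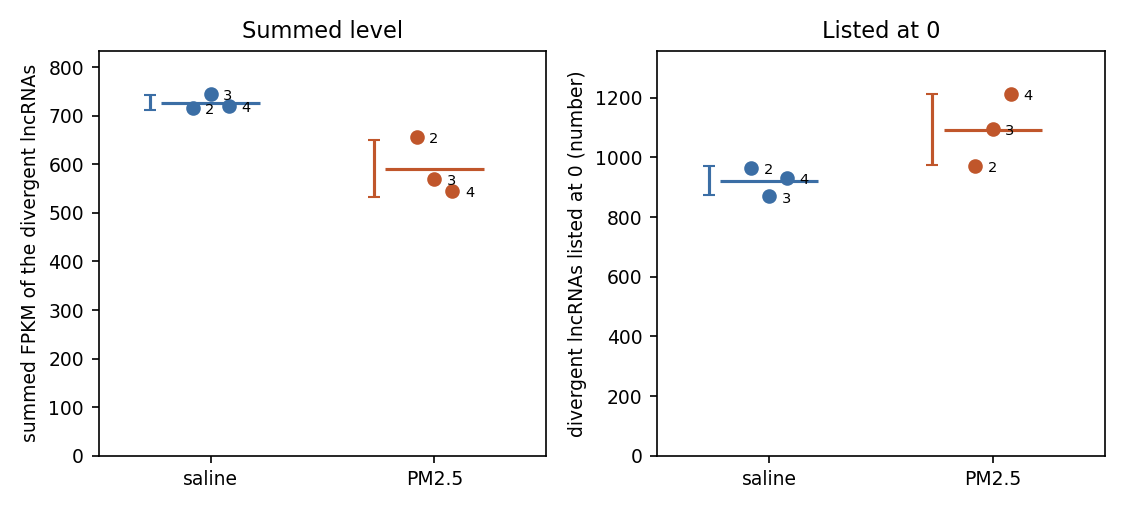
Summed FPKM of the 2882 divergent lncRNAs (left) and the number of them listed at 0 (right) in each library; points are libraries labelled with their replicate number, lines are group means and bars SD. All 3 PM2.5 sums, 545.3 to 657.1 FPKM, lie below the 3 saline sums of 716.9 to 744.6 FPKM.

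Some features of the libraries differed between the groups in part, and their part in the lower sum was not tested. Over all transcripts of the table, between 29706 and 31400 were listed at 0 with saline and between 30749 and 37122 with PM2.5, and PM2.5 replicate 4 had both the most of them and the lowest estimated depth, 18.8 M. All 12 lung markers were found, with Foxj1 of ciliated cells at 0 in at least 1 library, and their sums overlapped, at 10269 to 19059 FPKM with saline and 8539 to 11970 FPKM with PM2.5. Surfactant protein gene Sftpc had 8108, 687 and 861 FPKM with saline and 6618, 588 and 1952 FPKM with PM2.5, with overlap. Scgb1a1, another of the 12, had 8086, 7384 and 6377 FPKM against 2565, 4614 and 4956 FPKM, lower without overlap. Ager and Pecam1 of the same list overlapped between groups. The 8 cardiac muscle markers, of which Nppa was listed at 0 in at least 1 library, summed to 174.7, 376 and 179 FPKM against 265, 36.6 and 53.1 FPKM, and the 6 skeletal muscle markers, none at 0, to 12.4 to 26.3 FPKM against 3.41 to 13.4 FPKM. The 6 plasma cell markers, none at 0, summed to 91.9 to 129 FPKM with saline and 216 to 284 FPKM with PM2.5, the one list without overlap. The 5 erythroid markers, none at 0, summed to 3640 to 4710 FPKM against 3909 to 5707 FPKM. The 4 adipocyte markers, with Lep at 0 in at least 1 library, summed to 9.57 to 17.8 FPKM against 3.65 to 22.3 FPKM. At an unadjusted p under 0.05 with limma, 2 lung, 1 cardiac muscle and 3 skeletal muscle markers were lower. By the same test 2 plasma cell and 2 erythroid markers were higher, and no adipocyte marker differed. Of all genes tested, 7.82% were lower and 3.66% higher at that p. No label gives a batch, and where a list differs between the groups, it and the exposure cannot be told apart.

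In the test of each transcript, limma on log2(FPKM + 0.5) with adjustment over 60525 transcripts, none of the 350 tested members passed an adjusted p of 0.05, where 0.152% of all tested transcripts did, and the smallest adjusted p among members was 0.276. At an unadjusted p under 0.05 there were 34 members, or 9.71%, against 9.46% of all tested transcripts. These 34 comprised 29 that were lower and 5 that were higher with PM2.5, where all transcripts gave 4.89% lower and 4.56% higher. The counts moved with single libraries, to 19 members with 15 lower without saline replicate 3, to 23 with 18 lower without PM2.5 replicate 4, and to 43 with 39 lower without PM2.5 replicate 2. Of the 350, 240 had a negative and 110 a positive log2 fold change, so 68.6% were negative against 49.8% of all tested transcripts, and the median was -0.14 against 0.0019. Groups without overlap were found for 63 members that were lower, or 18% against a background of 8.31%, and for 8 that were higher, or 2.29% against 8.77%. A member whose level was high in 1 group only could enter through that group, which is why the sums over all members stand beside these counts.

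Other NONCODE lncRNAs were set beside the members in the same way, as a description. The 801 tested antisense lncRNAs, which overlap Ensembl transcripts on the opposite strand only, showed a median of -0.08 in log2 fold change, and were 60.7% negative, 55 lower and 11 higher at an unadjusted p under 0.05. The 3419 tested intergenic lncRNAs, with no overlap and no divergent partner in reach, had a median of -0.0035, with 50.6% negative, 97 lower and 138 higher. The 9760 tested sense-overlapping lncRNAs had a median of 0.05, with 42.1% negative, 308 lower and 612 higher. Summed levels over all transcripts of a class were, with PM2.5 relative to saline, 0.812 for the divergent, 0.881 for the antisense, 0.873 for the intergenic and 1.19 for the sense-overlapping class. The antisense sums did not overlap either, at 1733 to 1787 FPKM with saline and 1477 to 1680 FPKM with PM2.5, whereas the intergenic sums did, at 12026 to 16418 FPKM against 10653 to 12866 FPKM. The difference between classes was not tested.

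**Figure D2:**
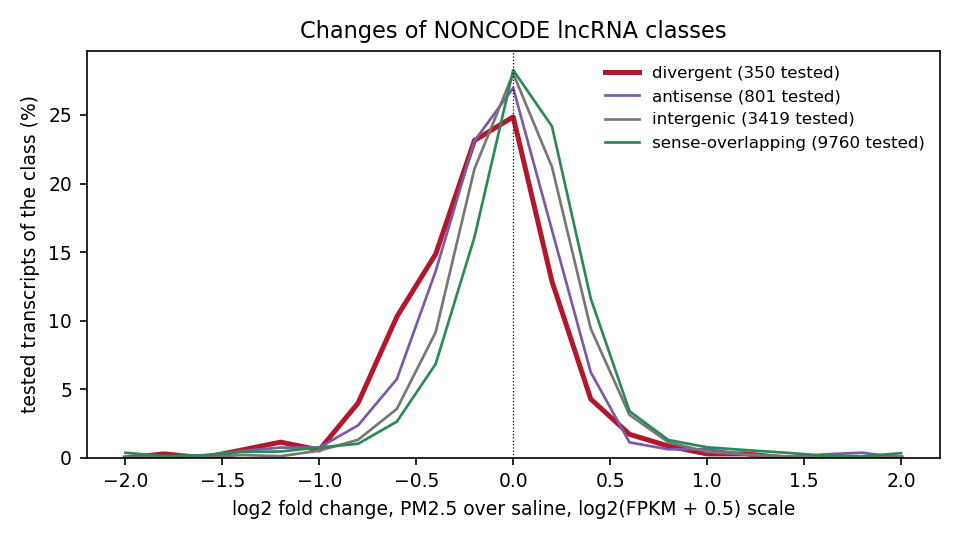
Share of the tested transcripts of 4 NONCODE lncRNA classes in bins of their log2 fold change, PM2.5 over saline, on the log2(FPKM + 0.5) scale; values beyond the axis are in the outermost bins. The curve of the 350 divergent lncRNAs is shifted to negative values, with a median of -0.14, next to the antisense class with -0.08.

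The summed level was lower with PM2.5 in each range of distance between the 2 starts, least so for the most distant pairs, whose tested members were centred near 0. For the 619 members with starts 1 to 99 bases apart, the PM2.5 mean of the summed level was 0.755 of the saline mean, and the 59 tested members among them showed a median of -0.22 in log2 fold change, and 17 were lower and 2 higher without overlap, or 28.8% and 3.39% beside the 8.31% and 8.77% of all tested transcripts. At 100 to 249 bases the ratio was 0.811 and the median of 131 tested members -0.16, with 20.6% lower and 1.53% higher without overlap. At 250 to 499 bases these were 0.796 and -0.16 with 57 tested, and 12.3% and 0%. At 500 to 999 bases they were 0.824 and -0.17 with 39 tested, and 23.1% and 7.69%, so the lower share did not fall steadily with distance. At 1000 to 2000 bases the ratio was 0.890, and the 64 tested members had a median of -0.02, with 3 lower and 1 higher without overlap, or 4.69% and 1.56%, both under the share of all tested transcripts. The level of the members differed little between these groups, with medians of 0.0671 to 0.0932 FPKM, and the differences between distances were not tested.

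**Figure D3:**
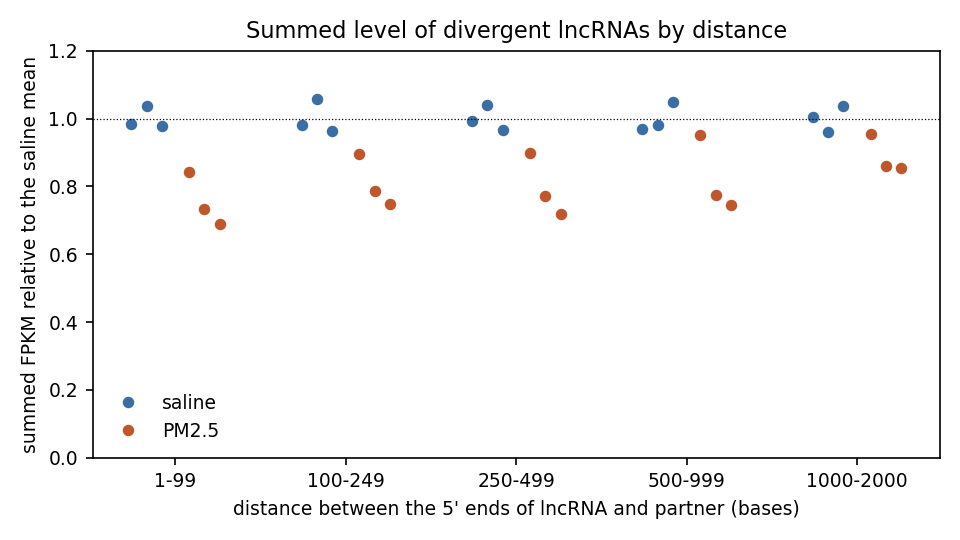
Summed FPKM of the divergent lncRNAs in 5 ranges of distance between the 5′ ends, each library divided by the saline mean of its range; points are libraries. In every range the 3 PM2.5 points lie below the 3 saline points, with a mean of 0.755 at 1 to 99 bases and 0.890 at 1000 to 2000 bases.

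By the rule used to name members, the 8 lower members of lowest p that averaged 1 FPKM or more and showed no overlap between groups were those beside Btbd9, Hist1h2bm, Setd2, Fkbp2, Zfp407, Msantd2, Chd3 and Tbc1d22a. NONMMUT029052.2, at chr17:30576300-30577429 and 13 bases from the start of Btbd9, a BTB domain protein, had 3.95, 4.14 and 3.73 FPKM with saline and 2.74, 2.66 and 2.13 FPKM with PM2.5. All PM2.5 values lay below the saline values, with a log2 fold change of -0.57 (SE 0.13) and an adjusted p of 0.388 with limma. It overlaps the RefSeq span of Btbd9. The Ensembl sum of Btbd9 was 6.15, 5.91 and 6.22 FPKM against 6.26, 7.24 and 8.35 FPKM, higher without overlap and with an adjusted p of 0.530 with limma.

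Near Setd2, which encodes the methyltransferase that trimethylates lysine 36 of histone H3, 2 neighbouring lncRNAs were lower. NONMMUT071079.2 (chr9:110529532-110531856) had 1.49, 2.07 and 1.92 FPKM against 0.882, 0.995 and 1.21 FPKM, a log2 fold change of -0.60 (SE 0.16). NONMMUT154076.1 (chr9:110531957-110532186), singled out after its values were seen because it had the lowest p of all members, had 1.52, 1.43 and 1.40 FPKM against 0.209, 0 and 0.462 FPKM. Neither overlaps a RefSeq gene, and in both the groups stood apart. The log2 fold change of NONMMUT154076.1 was -1.48 (SE 0.27) with an adjusted p of 0.276 with limma, while Setd2 itself had 18.2, 12.4 and 20.6 FPKM against 22.1, 18.8 and 23.3 FPKM, with overlap.

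NONMMUT016571.2, 290 bases from the histone H2B gene Hist1h2bm and overlapping the RefSeq pseudogene H2ac14, had 2.55, 2.96 and 0.677 FPKM with saline and 0.136, 0.322 and 0 FPKM with PM2.5. The saline libraries differed widely, but every one lay above the PM2.5 libraries, whose values rest on few fragments over a span of 352 bases. Its log2 fold change was -1.86 (SE 0.47) with an adjusted p of 0.411 with limma. Hist1h2bm was lower as well, at 5.85, 3.63 and 3.38 FPKM against 1.01, 1.31 and 1.95 FPKM, a log2 fold change of -1.31 (SE 0.27) with an adjusted p of 0.209 with limma. Histone genes are near-identical copies, so fragments may have been divided between them.

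NONMMUT024532.2, 92 bases from Tbc1d22a, a TBC domain protein, and second in level among all members, had 7.16, 4.54 and 5.73 FPKM against 4.02, 3.88 and 2.498 FPKM. The groups did not overlap, and its log2 fold change was -0.67 (SE 0.24), while Tbc1d22a had a mean of 16.1 FPKM in both groups. The member beside Zfp407, a zinc finger gene, had 2.10, 3.87 and 1.35 FPKM against 0.909, 0.698 and 0.378 FPKM. It spans 211 bases, so its PM2.5 values rest on few fragments. Zfp407 itself had 12.2 ± 0.387 and 12.8 ± 1.68 FPKM (SD, n = 3). The members beside Fkbp2, a peptidyl-prolyl isomerase, Msantd2 and Chd3, a helicase of the NuRD complex, had log2 fold changes of -0.66, -0.76 and -0.41 without overlap. Of their partners, Fkbp2 and Chd3 overlapped between groups, and Msantd2 was at 0 in saline replicate 4 and in each PM2.5 library. The member beside Msantd2 overlaps the RefSeq span of that gene.

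By the same rule 3 members were higher, fewer than the 8 it allows. NONMMUT027952.2, 177 bases from Scaf8, which encodes a protein that binds the tail of RNA polymerase II, is annotated by RefSeq as the lncRNA A230045G11Rik and had 4.04, 3.74 and 3.72 FPKM with saline and 5.41, 4.63 and 4.88 FPKM with PM2.5. All PM2.5 values were higher, with a log2 fold change of 0.34 (SE 0.12) and an adjusted p of 0.497 with limma, and Scaf8 had 18.3 ± 0.517 against 18.9 ± 1.96 FPKM (SD, n = 3). NONMMUT138891.1 beside Wdr26, a subunit of the CTLH ubiquitin ligase, had 2.65, 2.21 and 2.24 FPKM against 2.88, 2.86 and 2.85 FPKM. Its log2 fold change was 0.24 (SE 0.12) with an adjusted p of 0.584 with limma. NONMMUT067428.2 beside Zdhhc7, a palmitoyltransferase, had 2.58, 2.30 and 2.59 FPKM against 2.59, 2.74 and 2.78 FPKM, which barely separated the groups. Its log2 fold change was 0.10 (SE 0.11) with an adjusted p of 0.778 with limma. Both of these overlap the RefSeq span of their partner.

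The partner genes as a whole had changes centred near 0. Of 2224, 1987 were tested in the gene fit, with a median log2 fold change of -0.0083, and 4 of them, 0.201% against 0.0942% of all 14865 genes tested, passed an adjusted p of 0.05. At an unadjusted p under 0.05 there were 251 partner genes, or 12.6% beside 11.5% of all genes. Of these, 95 were higher (4.78% beside 3.66%) and 156 lower (7.85% beside 7.82%). The 4 that passed were Ube2q1, Map4k3 and Ccdc124, which rose, and Ubald1, which fell.

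Ube2q1 encodes a ubiquitin-conjugating enzyme. It had 2.52, 2.97 and 3.18 FPKM with saline and 10.7, 13.4 and 11.5 FPKM with PM2.5, a log2 fold change of 1.87 (SE 0.13) with an adjusted p of 0.0172 with limma. Its divergent lncRNAs had similar values in both groups. NONMMUT113606.1 (chr3:89768121-89772791, overlapping the RefSeq lncRNA 4632404H12Rik) had 1.93, 2.22 and 2.45 FPKM against 2.52, 1.44 and 2.22 FPKM. NONMMUT113605.1, whose start lies in the printed window, had 0.261, 0.211 and 0.133 FPKM against 0.167, 0.161 and 0.180 FPKM. Both overlapped between groups, and the change of NONMMUT113606.1 relative to Ube2q1 was -1.96 on the log2 scale (SE 0.28), with an adjusted p of 0.1004 with limma over 4941 pairs. In mean level, NONMMUT113606.1 stood at 2.20 FPKM beside 2.89 FPKM of Ube2q1 with saline and at 2.06 FPKM beside 11.9 FPKM with PM2.5.

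Ubald1 showed the opposite picture. The gene had 6.04, 4.61 and 4.56 FPKM with saline and 0.629, 0.496 and 0.610 FPKM with PM2.5, a log2 fold change of -2.36 (SE 0.15) with an adjusted p of 0.0172 with limma. NONMMUT025289.2 (chr16:4880725-4885129), 410 bases away, had 0.889, 0.583 and 0.737 FPKM against 0.891, 0.518 and 0.228 FPKM, with overlap. It shares positions with 2 NONCODE transcripts of the opposite strand, whose fragments may not be separable from its own. Relative to the gene it was higher by 2.08 on the log2 scale (SE 0.28), with an adjusted p of 0.1004 with limma. NONMMUT025288.2, 51 bases from Ubald1, was listed at 0 in 5 libraries and at 0.0196 FPKM in PM2.5 replicate 4.

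Map4k3, a kinase of the MAP4K family, had 6.79, 7.60 and 8.92 FPKM against 27.1, 26.2 and 32.6 FPKM, a log2 fold change of 1.82 (SE 0.13) with an adjusted p of 0.0182 with limma. Its lncRNA NONMMUT030760.2, 38 bases away and overlapping the RefSeq span of Map4k3, had 0.119, 0.289 and 0 FPKM with saline and 0 in each PM2.5 library. Ccdc124, a coiled-coil protein gene, was listed at 0 in all saline libraries and at 1.97, 2.63 and 1.38 FPKM with PM2.5, with an adjusted p of 0.0466 with limma. Its lncRNA NONMMUT152216.1, 73 bases away, had 0.00933, 0.0136 and 0.00952 FPKM with saline, which is under the value of 3 fragments, and 0 with PM2.5. Each of the 4 calls depended on single libraries, and that of Ccdc124 also on the scale, with an adjusted p with limma of 0.0775 at a pseudocount of 1 and 0.0539 with no filter on low values. Adjusted p values with limma for Ube2q1 were 0.0604 when saline replicate 3 was left out and 0.0751 when PM2.5 replicate 4 was. In the same order they were 0.0598 and 0.0596 for Ubald1 and 0.0705 and 0.0596 for Map4k3. With limma they were also 0.0637 for Map4k3 when PM2.5 replicate 2 was left out, and 0.0596 to 0.141 for Ccdc124 whichever library was left out. The count of called partner genes was 1 without saline replicate 3 or PM2.5 replicate 4 and 8 without PM2.5 replicate 3.

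**Figure D4:**
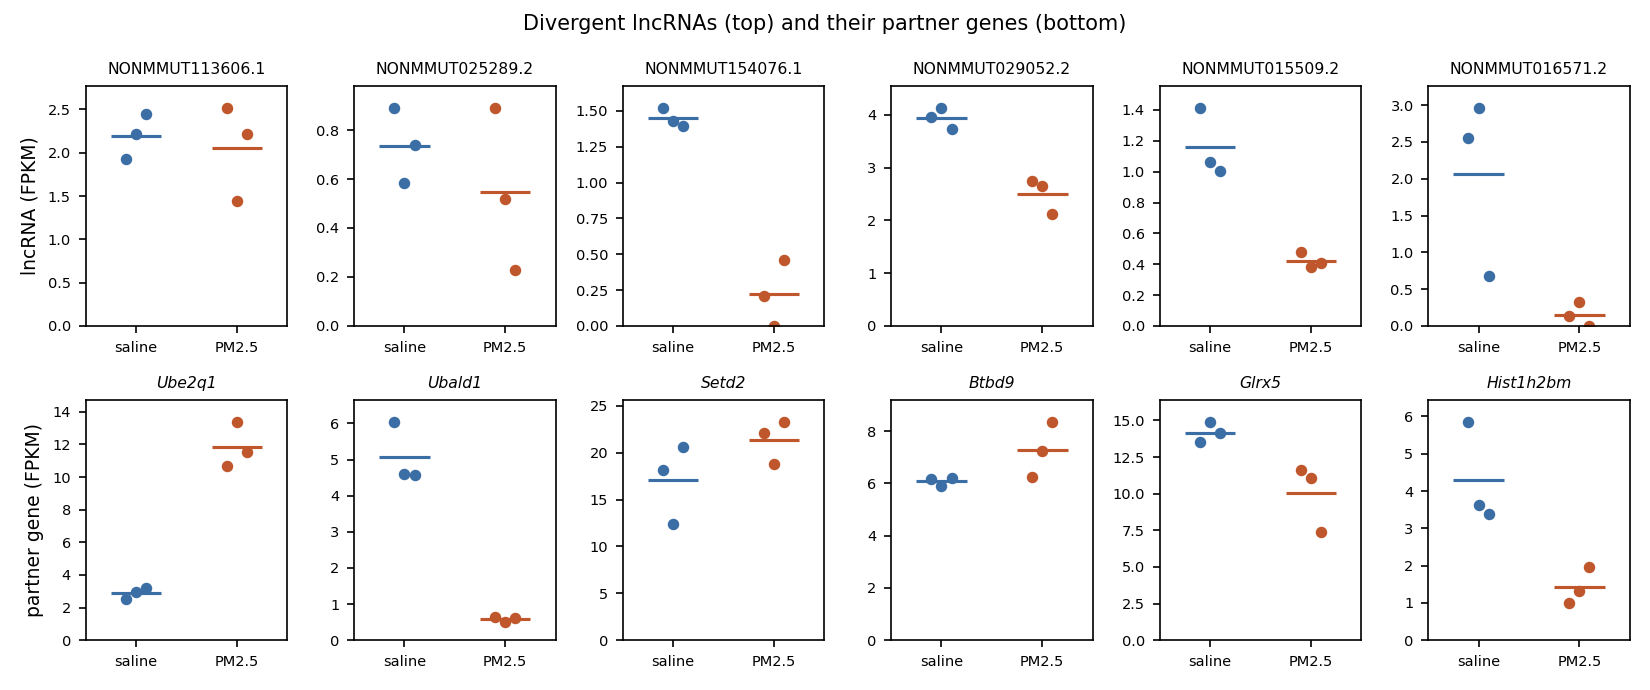
FPKM of 6 divergent lncRNAs (top) and their partner genes (bottom) in each library, with lines at the group means; each panel has its own axis from 0. Ube2q1 and Ubald1 change while their lncRNAs overlap between groups, the lncRNAs of Setd2 and Btbd9 are lower without a lower gene, and those of Glrx5 and Hist1h2bm are lower together with the gene.

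The direction of a divergent lncRNA and that of its partner showed little relation across pairs. Of 329 pairs with both values tested, 160 moved the same way by sign, or 48.6%, comprising 57 both higher and 103 both lower. Pearson's r between the log2 fold changes was 0.0212 and Spearman's rho 0.0136 across these pairs, which share libraries and are not independent replicates. The share was 52.2% for 184 pairs with starts within 250 bases, 52.4% for 124 members averaging 1 FPKM or more and 49.6% for 137 members outside RefSeq spans. Head-to-head pairs of Ensembl genes gave 544 of 1035, or 52.6%, with r of 0.193, and Ensembl transcripts of 0.5 to 2 FPKM gave 957 of 1822 with their partner genes, or 52.5%, with r of 0.0205. Members beside a partner gene that was higher at an unadjusted p under 0.05 had a median log2 fold change of -0.16 (22 members), those beside a lower one -0.18 (33 members) and the other 274 -0.15.

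**Figure D5:**
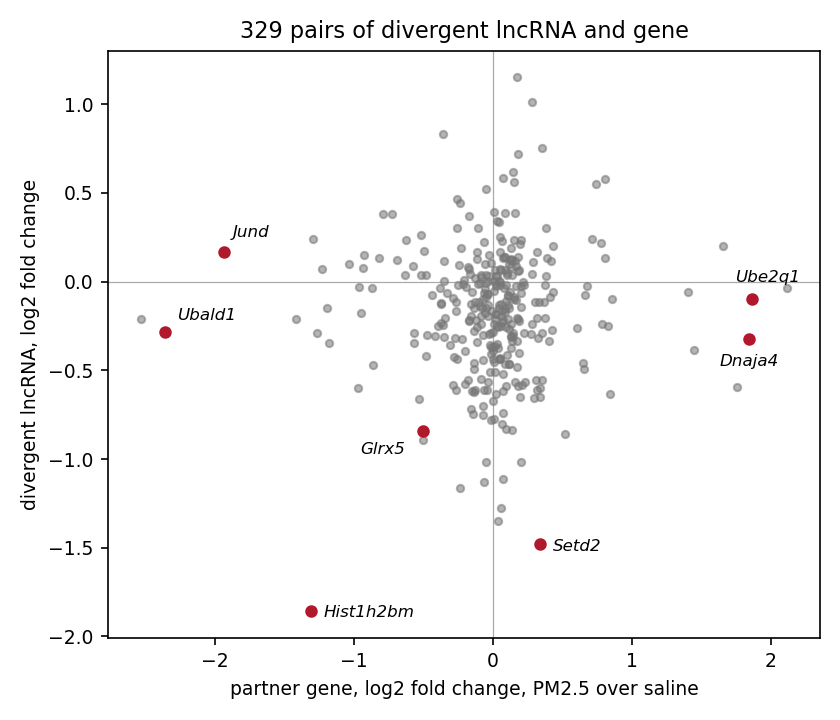
Log2 fold change, PM2.5 over saline, of the partner gene (horizontal) and of the divergent lncRNA (vertical) for 329 pairs on the log2(FPKM + 0.5) scale; each point is 1 pair and red points are named pairs. The points spread along both axes rather than along the diagonal, with r of 0.0212, and more of them lie below 0 on the vertical axis.

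When each lncRNA was tested relative to its partner within libraries, none of the 329 pairs passed an adjusted p of 0.05 with limma, as none of all 4941 pairs did (0%), and 48 had an unadjusted p under 0.05, or 14.6% against 10% of all pairs. In 33 of these 48 the lncRNA was relatively lower with PM2.5 and in 15 relatively higher. Among all 4941 pairs, 282 were relatively lower and 214 relatively higher at that p, and the difference in direction was not tested.

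Among pairs in which both had an unadjusted p under 0.05, 5 moved the same way and 1 moved in opposite directions. Such a p was found for 2 of 22 members beside a higher partner and 4 of 33 beside a lower one. For members beside the other partners it was found for 27 of 274, a similar share. Of all 34 members with such a p, 29 were lower, so a shared direction was not tested as a link. Glrx5, a mitochondrial glutaredoxin of iron-sulfur cluster assembly, had 13.5, 14.9 and 14.1 FPKM with saline and 11.6, 11.04 and 7.41 FPKM with PM2.5. Its lncRNA NONMMUT015509.2, which RefSeq annotates as Snhg10, another host gene of small nucleolar RNA, had 1.41, 1.06 and 1.004 FPKM against 0.480, 0.382 and 0.406 FPKM. Both were lower without overlap, with a log2 fold change of -0.84 (SE 0.17) and an adjusted p of 0.335 with limma for the lncRNA. The lncRNA beside Trim11, a ubiquitin ligase, had 0.728, 0.966 and 0.857 FPKM against 0.282, 0.508 and 0.390 FPKM, and Trim11 had 4.63, 5.19 and 3.48 FPKM against 2.37, 2.03 and 1.64 FPKM. This lncRNA overlaps the RefSeq span of Trim11, so fragments of Trim11 and of the lncRNA may not be separable there.

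The other pairs that moved the same way, beside Hist1h2bm described above, were those of Msto1, a mitochondrial protein, both lower, and of Lima1, an actin-binding protein, both higher. Around Lima1 the lncRNA NONMMUT143868.1 was listed at 0 in saline replicates 2 and 4, at 0.664 FPKM in replicate 3, and at 0.754, 0.791 and 0.984 FPKM with PM2.5, and Lima1 had 8.14 ± 0.787 against 9.998 ± 0.519 FPKM (SD, n = 3). The pair moving in opposite directions was that of Kcmf1, a ubiquitin ligase. NONMMUT150004.1, 560 bases away, had 1.502, 1.43 and 1.205 FPKM against 0.812, 1.005 and 0.366 FPKM, while Kcmf1 had 13.3, 16.4 and 18.2 FPKM against 20.3, 20.1 and 20.1 FPKM. Neither member of these pairs passed an adjusted p of 0.05 with limma.

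Chosen after their values were seen, for the lowest p of the pair test, 12 pairs were singled out, of which those of Ube2q1, Ubald1 and Setd2 are described above. In 7 of the other 9 the groups of the lncRNA overlapped, and in those of Cep170b and Hnrnpa0 they did not. Dusp1, a phosphatase of MAP kinases induced early after stimulation, had 67.7, 83.4 and 67.0 FPKM with saline and 27.2, 47.8 and 23.6 FPKM with PM2.5, while NONMMUT100848.1 had 0.671, 0.626 and 0.602 FPKM against 0.607, 0.704 and 0.305 FPKM. Klf4, a zinc finger transcription factor, had 35.3, 37.8 and 30.4 FPKM against 17.8, 20.1 and 15.6 FPKM, while NONMMUT148046.1 had 0.761, 0.871 and 0.576 FPKM against 0.794, 0.715 and 0.894 FPKM. In both, the gene was lower without overlap and the lncRNA was not. Jund, a subunit of the AP-1 transcription factor, had 14.7, 18.7 and 6.19 FPKM against 3.25, 3.21 and 2.01 FPKM, and NONMMUT152749.1 had 1.27, 0.969 and 1.04 FPKM against 1.24, 1.46 and 1.16 FPKM. Loxl1, an enzyme that cross-links elastin, had 21.4 ± 3.64 against 10.6 ± 0.306 FPKM (SD, n = 3), and its lncRNA 0.555 ± 0.0426 against 0.539 ± 0.131 FPKM. In the other direction, the tyrosine kinase gene Jak2 had 7.74, 1.93 and 3.59 FPKM against 7.78, 13.2 and 14.1 FPKM, and NONMMUT146072.1 had 1.51, 0.871 and 1.64 FPKM against 0.962, 0.718 and 0.984 FPKM. Dnaja4, a co-chaperone of heat shock protein, had 2.42, 2.30 and 8.21 FPKM against 15.04, 17.3 and 11.3 FPKM, and NONMMUT069195.2 had 0.775, 0.665 and 0.950 FPKM against 0.663, 0.310 and 0.674 FPKM. For Tmem252, the gene had 28.9, 40.4 and 41.9 FPKM against 17.5, 15.5 and 13.2 FPKM, and its lncRNA 0.507 ± 0.0953 against 0.584 ± 0.312 FPKM (SD, n = 3). Beside Cep170b, at 15.4, 16.3 and 12.8 FPKM against 12.02, 9.15 and 6.04 FPKM, NONMMUT089146.1 was higher, at 0.745, 0.496 and 0.760 FPKM against 1.15, 1.06 and 0.836 FPKM. NONMMUT089146.1 overlaps the RefSeq spans of Cep170b and of the protein-coding gene Gm46382, so fragments of these genes and of the lncRNA may not be separable there. Beside the RNA-binding protein gene Hnrnpa0, at 4.87, 4.35 and 2.47 FPKM against 1.17, 1.40 and 0.778 FPKM, NONMMUT142403.1 was lower too, at 0.546, 0.620 and 0.597 FPKM against 0.521, 0.379 and 0.429 FPKM. The adjusted p values of these 9 pairs with limma were 0.228 to 0.384, so none passed.

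Genes that act on RNA made upstream of promoters were followed as a list of 71 names, covering the nuclear exosome, its targeting complexes, cap binding, Integrator, U1 snRNP, cleavage and termination, pausing, and promoter chromatin. Of these, 66 were tested and none was called at an adjusted p of 0.05 with limma, where the smallest was 0.188, and the median log2 fold change was 0.07. At an unadjusted p under 0.05 there were 8, or 12.1%, close to the 11.5% of all genes, with 4.55% higher beside 3.66% and 7.58% lower beside 7.82%. The 3 higher ones were Zfc3h1 of the poly(A) exosome targeting connection and the Integrator subunits Ints3 and Ints8. The 5 lower ones were the exosome subunits Exosc4 and Exosc5, the Integrator subunit Ints1, and the U1 snRNP proteins Snrpa and Snrpc. Exosc4 had 6.42, 7.11 and 5.25 FPKM with saline and 3.53, 3.64 and 3.68 FPKM with PM2.5, and Snrpc had 13.1, 9.57 and 9.97 FPKM against 6.42, 8.05 and 5.96 FPKM. For both, the PM2.5 libraries all lay below the saline libraries. The catalytic exosome subunits Exosc10 and Dis3 had log2 fold changes of 0.11 and -0.03, with overlap between groups for both.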

How the data were processed

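The deposited table holds 1 value per transcript and library for 149728 transcripts. Its unit, FPKM, was inferred from the values, with low values near regular steps, and the quantifier used by the authors is not given in the sources used here. HISAT2, bcl2fastq and build mm10 were used, without stated versions, per the submitters' processing notes. Positions are those of the deposited table, and RefSeq names, spans and promoter windows are of GRCm38.p6.

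Ensembl FPKM were summed per gene symbol. Transcripts, genes, and the log2 difference of a transcript and its partner gene were fitted in 3 fits over the whole table as log2(FPKM + 0.5), where the mean over the libraries reached 0.5 FPKM, with limma 3.58.1 in R 4.3.3 (moderation with a mean trend, 2-sided, Benjamini-Hochberg). Fold changes are PM2.5 over saline and understate those of low values. An exact 0 may be a failed estimate.

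Members, lists and tests were chosen with earlier results of these data known. Named were called members, members of called partners, the 10 of highest level, up to 8 per direction of lowest p with at least 1 FPKM and no overlap, and up to 6 pairs per direction with both p under 0.05, 1 isoform per partner in the last 3. On simulated data, changes were placed only in features at or above the median of the mean log2 values of each fit. There, changes of 4-fold were recovered for 65% of transcripts, 87% of genes and 45% of pairs, and those of 2-fold for 13%, 64% and 7%. These rates need not hold below that median, and the tested members had a median level of 0.839 FPKM. Alternatives were other pseudocounts (1 and 0.1), median-ratio scaling, a limit of 2 FPKM on the mean or none, the replicate number as a block and each library left out. Those with RefSeq spans, shares of FPKM, and sums without replicate 4 or the highest members were added after seeing the data. No intervals are given, since the values hold no fragment counts. Chromosome X and Y transcripts were not analysed here, and 1 of the 10 members of highest level is not reported here.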

Additional observations from a re-analysis of the deposited data

How the results depend on the processing

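The count of 0 divergent lncRNAs called held in all 12 alternative fits, and at an unadjusted p under 0.05 limma gave 34 members. That count was 205, with 177 lower, with no filter on low values (2882 tested), and 3, with 2 lower, at a mean of at least 2 FPKM (32 tested). Leaving out 1 library at a time gave 19 to 43 members, 15 to 39 of them lower, 1 to 8 called partner genes and a median log2 fold change of tested members of -0.19 to -0.13. The replicate block gave 0 called partner genes, and same-numbered libraries did not deviate together (r of -0.0332, -0.0292 and 0.0497), so the numbers were not taken as pairs. With no filter, 1 pair was called, that of NONMMUT025288.2 and Ubald1. Outside RefSeq spans 1320 members were left. In each case the cause was not tested, except that filters and spans change how many transcripts enter.

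Signs turned for uncalled values near 0 only. Over the fits that leave out 1 library, log2 fold changes ran from -0.014 to 0.20 for Lsm8, -0.10 to 0.10 for Tbc1d22a, -0.012 to 0.13 for Scaf8, -0.038 to 0.052 for Sema5a and -0.40 to 0.35 for Chd3 among partner genes. Among lncRNAs they ran from -0.23 to 0.28 for NONMMUT150279.1, -0.35 to 0.060 for NONMMUT128822.1, -0.012 to 0.079 for NONMMUT024372.2, -0.14 to 0.19 for NONMMUT150138.1 and -0.23 to 0.092 for NONMMUT113606.1. A pseudocount of 1 gave -0.00046 for NONMMUT150138.1 and median-ratio scaling 0.031 for Chd3. Depth limits most members, since a median level of 0.0792 FPKM is near that of 3 fragments, and lncRNA fragments that lie in an unannotated part of the partner cannot be separated without strand.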

Other observations

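Histone genes were looked at after their values were seen. 7 members faced 5 replication-dependent histone genes, which supply the chromatin of dividing cells, and none of the 5 genes passed an adjusted p of 0.05 with limma. Hist1h4h had 101.6, 79.5 and 37.8 FPKM with saline and 16.3, 19.3 and 9.74 FPKM with PM2.5. Of its lncRNAs, NONMMUT090995.1 had 0.0868, 0.0843 and 0.177 FPKM with saline and 0 in each PM2.5 library. NONMMUT016662.2 went the other way, at 0 in each saline library and 0.133, 0 and 0.0369 FPKM with PM2.5. NONMMUT016663.2 was above 0 in saline replicate 2 alone, at 0.156 FPKM. Hist1h3a had 6.27, 5.08 and 3.52 FPKM against 1.06, 0.509 and 0.0995 FPKM, and its lncRNA NONMMUT142225.1 had 0.136, 0.232 and 0.209 FPKM against 0.0701, 0.133 and 0 FPKM. Hist1h1e had 78.9, 104.2 and 58.3 FPKM against 21.996, 15.3 and 13.2 FPKM, beside a lncRNA, NONMMUT016671.2, of at most 0.0209 FPKM. In all 3 genes every PM2.5 library lay below every saline library, and the adjusted p values with limma were 0.195 for Hist1h4h, 0.133 for Hist1h3a and 0.0876 for Hist1h1e. The lncRNAs named here were not tested, since their means lay under 0.5 FPKM, while the 1 tested member of the 7, NONMMUT016571.2 beside Hist1h2bm, had an adjusted p of 0.411 with limma.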
